A study of Rattus norvegicus with 6 samples.

Results

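The miR-15/16 family and its X-linked relatives were examined in the hypothalamic arcuate nucleus (ARC) of rats, as 8 mature miRNAs chosen by name from the 562 listed in each library. They comprise miR-15b-5p, miR-15b-3p and miR-16-5p of the miR-15b/miR-16 cluster, miR-195-5p and miR-497-5p of the miR-195/miR-497 cluster, and miR-322-5p, miR-322-3p and miR-503-5p of the miR-322/miR-503 cluster. All 8 were listed above 0 in all 6 libraries, and all 8 entered the test. Sprague-Dawley rats aged 8 to 10 weeks had received either a chronic constriction injury of the left infraorbital nerve (CCI-ION, 3 libraries), which serves as a model of trigeminal neuropathic pain, or a sham operation in which the nerve was exposed without being tied (sham, 3 libraries). ARC tissue was taken on Day 14 after surgery, no transgene or drug was involved, and the study's legend for these data names more rats per group than there are libraries, without saying how the rats were divided among libraries. The p-values below therefore measure the spread between libraries, which may be technical.

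A miRNA guides the silencing complex to messenger RNAs mainly through its seed, the bases 2 to 8 from its 5′ end, so miRNAs with a common seed share many potential targets. The miR-15/16 family is best known for restraining the cell cycle and cell survival through targets such as cyclins and BCL2, and miR-322 is the rodent counterpart of human miR-424. Each hairpin precursor can release a miRNA from its 5p and its 3p arm, and the arms have different seeds and hence different targets.

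The mature sequences are shown with the seed in capitals because the seed defines the family and separates its arms. They were taken from RefSeq (assembly GRCr8), which held all 8.
rno-miR-15b-5p: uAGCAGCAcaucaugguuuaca
rno-miR-16-5p: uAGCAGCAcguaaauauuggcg
rno-miR-195-5p: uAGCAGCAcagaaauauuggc
rno-miR-497-5p: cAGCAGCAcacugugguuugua
rno-miR-322-5p: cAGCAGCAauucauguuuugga
rno-miR-503-5p: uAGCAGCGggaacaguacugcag
rno-miR-15b-3p: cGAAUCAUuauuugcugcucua
rno-miR-322-3p: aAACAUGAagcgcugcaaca
Of the 512 listed miRNAs with a RefSeq sequence, 5 carried the seed AGCAGCA, namely miR-15b-5p, miR-16-5p, miR-195-5p, miR-497-5p and miR-322-5p, one or more from each cluster. Listed miRNAs without a RefSeq sequence under their name could not be checked, so further carriers may be missing. miR-503-5p departs from that seed by the substitution A8G relative to miR-16-5p, counted from the 5′ end, and shares bases 2 to 7 with it. The 3p arms miR-15b-3p and miR-322-3p carry unrelated seeds. miR-16-5p and miR-195-5p are the most alike members, with 19 of 21 compared bases identical and the substitutions G10A and U11G (miR-16-5p first), so a read with errors at those bases could be assigned to the other. miR-16-5p and miR-497-5p have the same seed but only 11 of 22 identical bases.

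In RefSeq, the 5p arms of miR-15b and miR-16 lie on the plus strand at chr2:155555197-155555218 and chr2:155555343-155555364, within the span of the protein-coding gene Smc4. Those of miR-497 and miR-195 lie on the plus strand at chr10:55450172-55450193 and chr10:55450509-55450529, in the span of no other gene of the table. The arms miR-322-5p at chrX:137726198-137726219 and miR-503-5p at chrX:137725899-137725921 lie on the minus strand within the span of a long noncoding RNA gene. From start to start, the 5p arms are 337 bases apart for miR-497 and miR-195 and 299 for miR-322 and miR-503, and those of miR-15b and miR-16 are closer. These coordinates are GRCr8 positions, and the libraries were matched to RefSeq by miRNA name.

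The deposited value is a normalized count, which appears to be a read count divided by one size factor per library. Read numbers here are inferred, by taking the step of which every value in a library is a whole multiple as 1 read. On that count the sham libraries held 11115049 to 14313839 reads, the CCI-ION libraries 8628309 to 11297551. CCI-ION replicate 2 was the shallowest library and also lay apart from its group for several members below. Markers of neurons and of the hypothalamus were abundant, with 5 of 5 neuronal miRNAs above 0 in every library and a summed share of 14.4% to 17.7% of the counts in sham and 13.1% to 16.6% in CCI-ION libraries. The neuronal sum was mostly miR-9a-5p, followed by miR-128-3p. The labels name no batch.

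miR-322-3p and miR-16-5p were the most abundant members, and the rest of the family was low. In sham libraries the order by mean normalized count was miR-322-3p (1344 ± 251, SD, n = 3), miR-16-5p (1280.1 ± 99.8), miR-195-5p (506 ± 40.7), miR-497-5p (289 ± 36.5), miR-322-5p (179 ± 25.5), miR-503-5p (167 ± 25.2), miR-15b-5p (121 ± 1.27) and miR-15b-3p (33.5 ± 0.731). Overlapping neighbours in this order were miR-322-3p with miR-16-5p and miR-322-5p with miR-503-5p. In CCI-ION libraries the order of the means was the same, but miR-322-3p now lay above miR-16-5p in every library, while miR-195-5p overlapped miR-497-5p and miR-503-5p overlapped both miR-322-5p and miR-15b-5p. The means within a group changed places when a library was left out, miR-16-5p with miR-322-3p without sham replicate 3, and miR-503-5p with miR-322-5p without sham replicate 1 or without CCI-ION replicate 1. By the mean over the 6 libraries, miR-322-3p ranked 172 among the 562 miRNAs and miR-15b-3p ranked 439. Levels of different miRNAs also depend on how readily each is captured during library preparation, so this order is one of read counts.

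**Figure D1:**
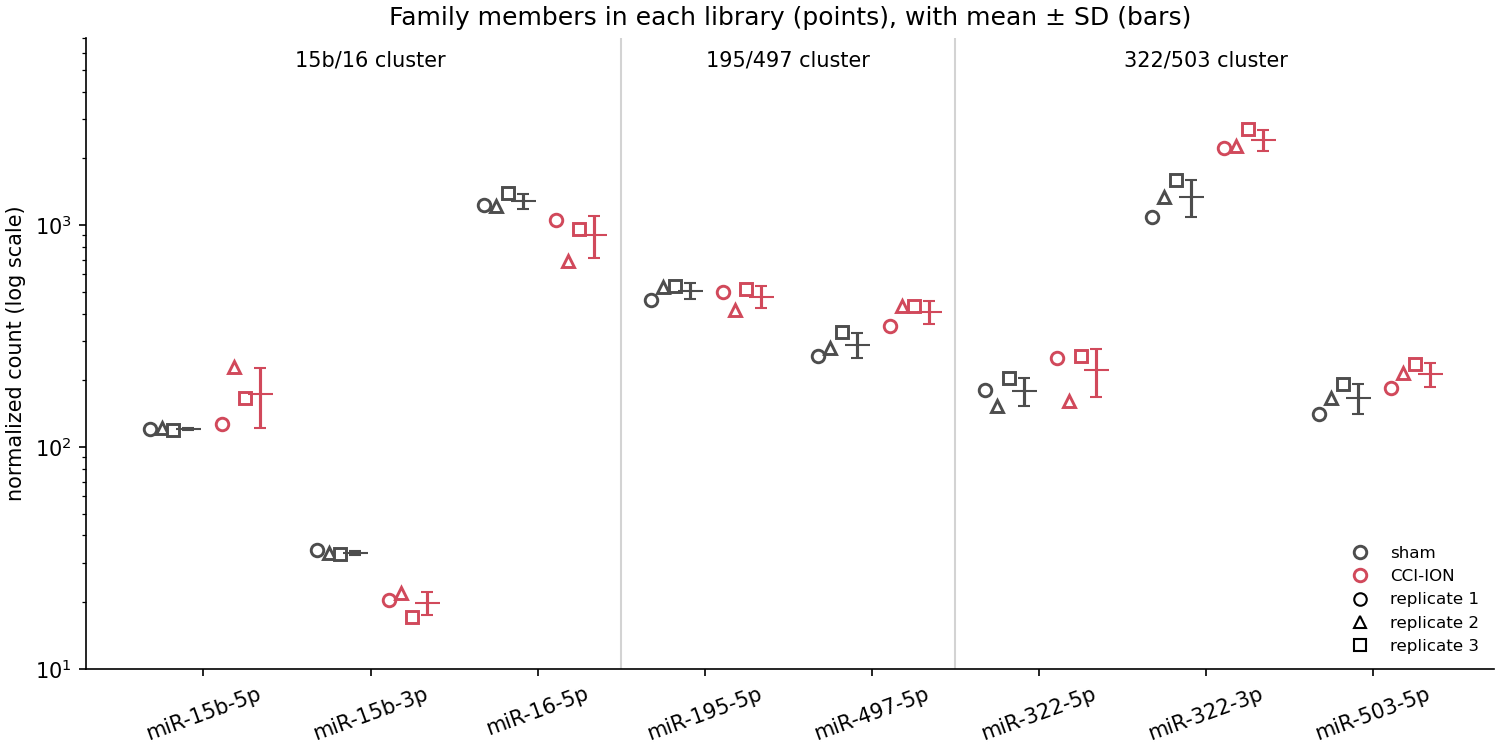
Normalized count (log axis) of each of the 8 members in the 3 sham and 3 CCI-ION libraries, with the symbol giving the replicate number and the bars the mean ± SD. The CCI-ION libraries lie above all sham libraries for miR-15b-5p, miR-497-5p and miR-322-3p and below them for miR-15b-3p and miR-16-5p.

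The comparison of CCI-ION with sham asks which miRNAs of the ARC change with nerve injury. The minor arm of miR-15b, miR-15b-3p, fell and was the 1 member of 8 that passed the threshold (an adjusted p under 0.05 from limma with Benjamini-Hochberg adjustment over the 555 miRNAs tested), whereas 6.85% of all miRNAs tested passed it, 3.42% as higher and 3.42% as lower. An unadjusted p under 0.05 was reached by 4 of the 8 members, namely miR-15b-3p, miR-322-3p, miR-497-5p and miR-16-5p, against 33% of all miRNAs tested. On the deposited scale the groups did not overlap for 5 of the 8 members, 3 higher and 2 lower in CCI-ION rats, against 40.7% of all miRNAs tested (19.5% higher and 21.3% lower). The log2 fold change was above 0 for 5 members and below 0 for 3, with a median of 0.32 beside a median of -0.01 for all miRNAs tested. Fold changes here are on the log2(normalized count + 1) scale, which slightly understates changes of the rarest members. As the tissue was analysed in bulk, a change in the number of cells of a type and a change in the miRNA content per cell cannot be told apart.

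**Figure D2:**
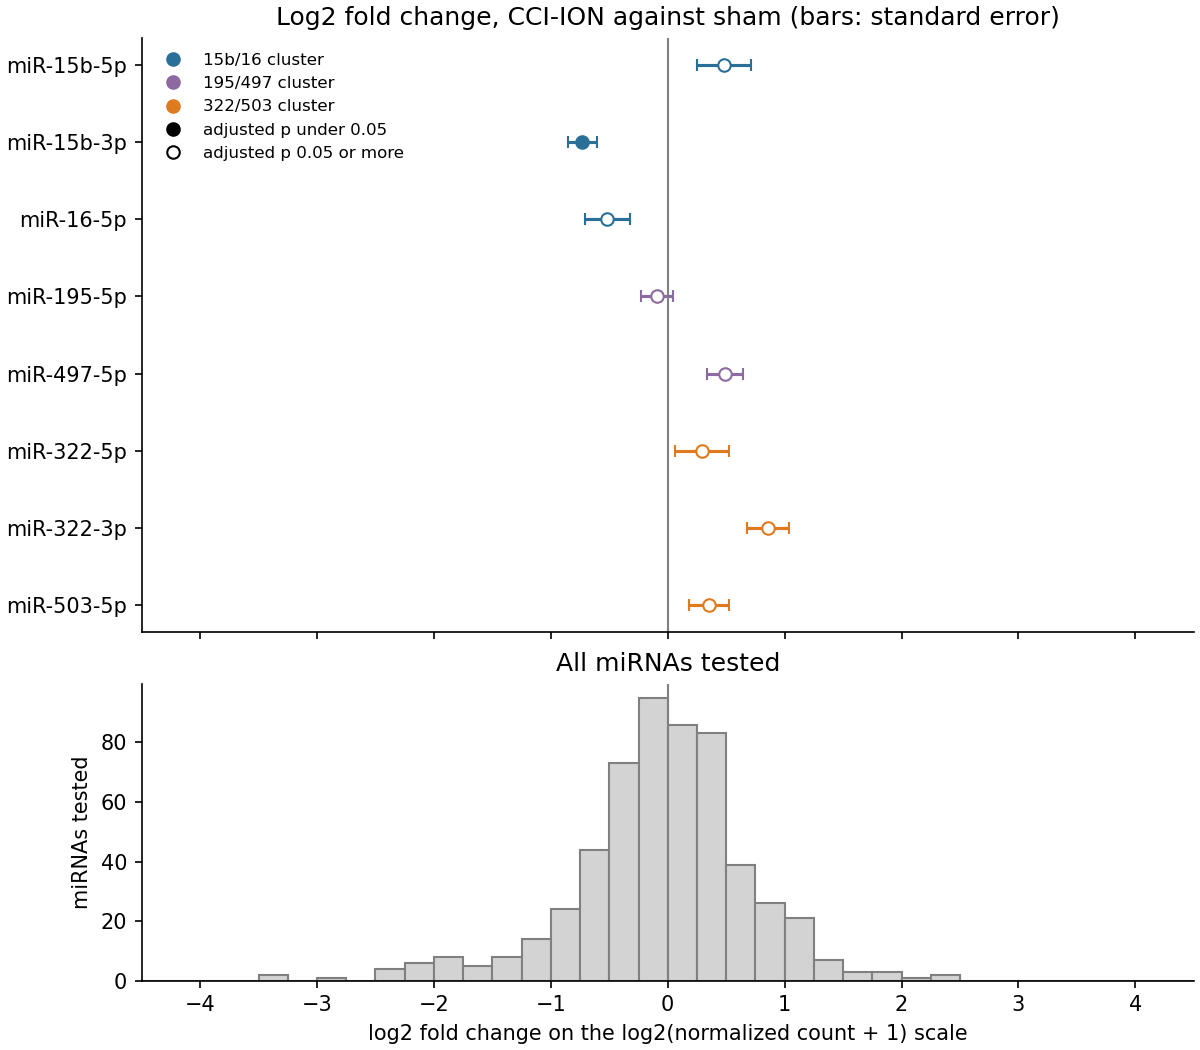
Upper panel, log2 fold change (CCI-ION against sham) of each member with its SE, coloured by cluster, with filled symbols for an adjusted p under 0.05; lower panel, histogram of the log2 fold changes of the 555 miRNAs tested. Only miR-15b-3p is filled, and the members lie between -0.73 for miR-15b-3p and 0.86 for miR-322-3p.

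Within the miR-15b/miR-16 cluster, the means of the members differed from sham in opposite directions, and 1 of the 3 passed the threshold. miR-16-5p, the most abundant of the 5 with the AGCAGCA seed, had 1229.7, 1216 and 1395 normalized counts across the sham libraries, in replicate order, against 1062, 693 and 965 across the CCI-ION libraries. On this scale every CCI-ION library lay below every sham library, and CCI-ION replicate 2 was the lowest. In CPM (reads relative to library totals) the groups overlapped, at 107 ± 9.43 in sham and 86.8 ± 18.5 in CCI-ION libraries (mean ± SD). The log2 fold change, -0.52 (SE 0.19), missed the threshold (limma adjusted p = 0.137) and was -0.34 without CCI-ION replicate 2 and -0.32 with library totals. miR-15b-5p, which carries the same seed and comes from the hairpin next to it, showed 121, 122 and 119.7 normalized counts in the sham libraries and 127, 230.1 and 166 in the CCI-ION libraries. Here every CCI-ION library lay above the sham libraries, with CCI-ION replicate 1 close to them and replicate 2 far above. Its log2 fold change, 0.48 (SE 0.23), also missed the threshold (limma adjusted p = 0.200) and was 0.26 without CCI-ION replicate 2 and 0.23 with upper-quartile factors.

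miR-15b-3p, the opposite arm of the miR-15b hairpin, had 34.3, 33.3 and 32.9 normalized counts in the sham libraries and 20.5, 21.9 and 17.2 in the CCI-ION libraries. The sham libraries were within 2 normalized counts of each other and all lay above the CCI-ION libraries. The log2 fold change was -0.73 (SE 0.13, limma adjusted p = 0.0398), from 33.5 ± 0.731 to 19.9 ± 2.40 (SD, n = 3 each). These values rest on few inferred reads: 30, 40 and 39 in the sham libraries and 22, 18 and 16 in the CCI-ION libraries. The exact Poisson 95% interval, which covers counting error only, was 89.5 to 131 for the 109 sham reads and 42.3 to 72.7 for the 56 CCI-ION reads. For sham replicate 1 alone it was 20.2 to 42.8 reads. The sham libraries thus agreed more closely than counting error alone would give, so the SE of 0.13 may be too small. Under an intensity trend the SE was 0.24. The call was lost when the values were scaled to library totals (-0.54, limma adjusted p = 0.0579), under an intensity trend (limma adjusted p = 0.0725), and when any library other than CCI-ION replicate 2 was left out (limma adjusted p from 0.0608 to 0.148).

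The balance of the miR-15b arms differed between the groups, and a ratio within a library hardly depends on how the library is scaled. miR-15b-5p had 3.53, 3.68 and 3.64 reads for each read of miR-15b-3p across the sham libraries, against 6.18, 10.5 and 9.62 across the CCI-ION libraries. The sham libraries were nearly equal, and the CCI-ION libraries were all higher and more spread. With 30, 40 and 39 inferred reads of miR-15b-3p, the sham ratios agreed more closely than counting error alone would give. The SE of their comparison may therefore be too small. On the log2 scale the 5p to 3p ratio rose by 1.21 (SE 0.22, limma adjusted p = 0.0198 over the 158 hairpins with both arms measured), against 19% of these hairpins past the threshold in either direction and 8.86% as higher. It was the 1 of the 4 family hairpins tested (miR-15b, miR-195, miR-322 and miR-503) to pass; the groups did not overlap for miR-15b and miR-322, against 44.3% of the hairpins. The call held without any one CCI-ION library and was lost without any one sham library (1.19 to 1.22, limma adjusted p from 0.0691 to 0.0828).

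The log2 ratio of miR-15b-5p to miR-16-5p was -3.33, -3.30 and -3.53 in the sham libraries and -3.06, -1.59 and -2.53 in the CCI-ION libraries. All CCI-ION libraries lay above the sham libraries, with replicate 1 the nearest to them. The difference of 1.00 had a two-sided exact permutation p of 0.1 (0.15 after adjustment over 3 pairs), a value that no comparison of 3 with 3 libraries can go below. The difference was 0.59 when CCI-ION replicate 2 was left out. miR-16-3p, the other arm of miR-16, was at the detection limit, with 5, 0 and 7 reads in the sham libraries and 0 in every CCI-ION library, where the smallest listed value was worth 5 reads. miR-15a-5p, named here after its values were seen as a further miR-15 in the files, averaged 31.5 ± 3.61 normalized counts in sham libraries and 24.4 ± 7.46 in CCI-ION libraries (SD, n = 3 each), and the groups overlapped.

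**Figure D3:**
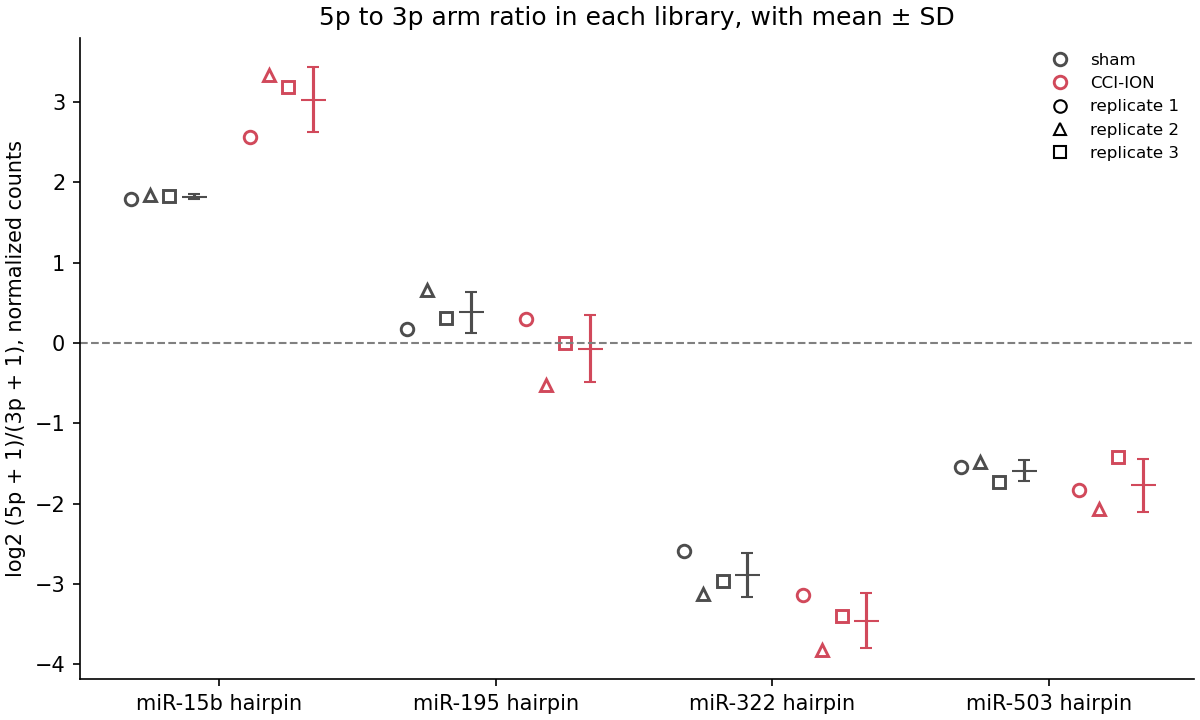
Log2 of (5p + 1)/(3p + 1), the balance of the arms in normalized counts, in each library for the 4 family hairpins with both arms measured; symbols give the replicate number and bars the mean ± SD, and the dashed line marks equal arms. The miR-15b hairpin is the one whose ratio passed the threshold (difference 1.21), and the miR-322 and miR-503 hairpins lie below 0 because their 3p arms are the more abundant.

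In the miR-195/miR-497 cluster, miR-497-5p was higher in CCI-ION libraries while miR-195-5p overlapped between the groups; neither passed the threshold. miR-497-5p had 258, 280.2 and 329.6 normalized counts in the sham libraries and 353, 435 and 434 in the CCI-ION libraries. No CCI-ION library overlapped the sham libraries, although CCI-ION replicate 1 was close to sham replicate 3. Its log2 fold change, 0.49 (SE 0.15), missed the threshold (limma adjusted p = 0.104) and was 0.25 with upper-quartile factors. The study displayed miR-497-5p and miR-322-3p, and also miR-351-5p, miR-143-3p and miR-145-5p, among the miRNAs increased in these same libraries, so their direction is not independent evidence. The study also measured conserved miRNAs of that display by qPCR in the ARC. Its primer list includes miR-322-3p, miR-351-5p, miR-145-5p and miR-451-5p, but not miR-497-5p or miR-143-3p. Those qPCR values were not used here. miR-195-5p had 459, 525 and 534 normalized counts in the sham libraries and 498, 415 and 518 in the CCI-ION libraries, with overlapping groups. Its log2 fold change of -0.09 (SE 0.14, limma adjusted p = 0.673) became 0.11 with library totals and 0.01 without CCI-ION replicate 2.

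The log2 ratio of miR-497-5p to miR-195-5p was -0.83, -0.90 and -0.69 in the sham libraries and -0.50, 0.07 and -0.25 in the CCI-ION libraries. All CCI-ION libraries lay above the sham libraries, and in CCI-ION replicate 2 the usual order of these miRNAs was inverted. The difference of 0.58 gave p = 0.1 in the exact permutation test (0.15 adjusted over 3 pairs). miR-195-3p, the opposite arm of miR-195, went from 389 ± 50.9 normalized counts in sham to 505 ± 96.8 in CCI-ION libraries (SD, n = 3 each), so that the arms of this hairpin were near parity. The change of its 5p to 3p ratio, -0.45 (SE 0.25), missed the threshold (limma adjusted p = 0.232) and was -0.23 without CCI-ION replicate 2.

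In the miR-322/miR-503 cluster, miR-322-3p had the largest change of the family on the deposited scale, whereas with upper-quartile factors miR-15b-3p (-0.97) and miR-16-5p (-0.76) exceeded it in size. It had 1093, 1345 and 1595 normalized counts across the sham libraries, against 2240.5, 2287 and 2719 across the CCI-ION libraries. The groups were well apart, with the lowest CCI-ION library above the highest sham library. The means of 1344 ± 251 and 2415 ± 264 (SD, n = 3 each) stood in a ratio of 1.80, and the log2 fold change of 0.86 (SE 0.18) fell just short of the threshold (limma adjusted p = 0.0530). miR-322-3p passed with library totals (1.06, limma adjusted p = 0.0356), with library totals that left out the most abundant miRNA (0.91, limma adjusted p = 0.0454), with a minimum mean of 10 (limma adjusted p = 0.0300) and with an intensity trend (limma adjusted p = 0.0160). It missed the threshold with upper-quartile factors (0.61, limma adjusted p = 0.0785), without a filter (limma adjusted p = 0.0550), with a pseudocount of 0.1 (limma adjusted p = 0.0566) and when any one library was left out (0.72 to 0.99, limma adjusted p from 0.0704 to 0.148).

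The Mir322 hairpin is shown because its arms behaved unequally, with miR-322-5p (first) and miR-322-3p (second) in capitals, at chrX:137726147-137726241 on the minus strand of GRCr8.
Mir322: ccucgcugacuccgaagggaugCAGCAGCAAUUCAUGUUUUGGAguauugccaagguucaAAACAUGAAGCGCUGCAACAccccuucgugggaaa
The arm that carries the family seed, miR-322-5p, was the rarer one: miR-322-3p had 6.05, 8.79 and 7.82 reads for each read of miR-322-5p in the sham libraries and 8.85, 14.2 and 10.6 in the CCI-ION libraries. The CCI-ION libraries were all higher, but replicate 1 was within 0.1 of sham replicate 2. The 5p to 3p log2 ratio was lower by 0.56 (log2 difference -0.56, SE 0.23) and missed the threshold (limma adjusted p = 0.134). miR-322-5p itself had 181, 153 and 204 normalized counts in the sham libraries and 253, 161 and 256 in the CCI-ION libraries, so that CCI-ION replicate 2 fell among the sham libraries. Its log2 fold change was 0.29 (SE 0.23, limma adjusted p = 0.405). That value was 0.18 without CCI-ION replicate 3, 0.19 without sham replicate 2 or CCI-ION replicate 1, 0.51 without CCI-ION replicate 2, 0.50 with library totals and 0.05 with upper-quartile factors.

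miR-503-5p, whose seed differs from the family's at its last base, had 141.7, 166 and 192 normalized counts in the sham libraries and 184, 217 and 237 in the CCI-ION libraries. On this scale the groups overlapped at 1 library each, though not in CPM (13.9 ± 2.48 and 20.4 ± 2.72, SD, n = 3 each). The log2 fold change, 0.35 (SE 0.17), missed the threshold (limma adjusted p = 0.200) and was 0.55 with library totals and 0.11 with upper-quartile factors. As with miR-322, the 3p arm of this hairpin was the more abundant: miR-503-3p averaged 509 ± 119 normalized counts in sham libraries and 735 ± 154 in CCI-ION libraries (SD, n = 3 each), a log2 difference of 0.54 (limma adjusted p = 0.172). The log2 ratio of miR-322-5p to miR-503-5p was 0.10 ± 0.23 in sham and 0.05 ± 0.45 in CCI-ION libraries (SD, n = 3 each), with overlapping groups (exact permutation test, two-sided p = 1). Its difference of -0.06 turned to 0.06 without sham replicate 1 and to 0.18 without CCI-ION replicate 2.

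Further miRNAs of the same X-linked cluster were read from a list of 6, the arms of miR-351, miR-542 and miR-450a. In limma 0 of them passed the threshold and 2 reached an unadjusted p under 0.05, and the mean was higher in CCI-ION libraries for 5 of the 6. miR-351-5p, the most abundant of them, had 3534, 3405 and 4452 normalized counts in the sham libraries and 5235, 7898 and 6138 in the CCI-ION libraries. Its groups did not overlap, and its log2 fold change was 0.75 (SE 0.20, limma adjusted p = 0.0828). miR-351-3p, its rare opposite arm, was higher by 0.72 on the log2 scale (limma adjusted p = 0.107) and likewise did not overlap. miR-450a-5p, miR-542-5p and miR-542-3p had log2 fold changes of 0.53, 0.48 and 0.81 with overlapping groups, and miR-450a-3p was listed at 0 in 1 library of each group. The arm ratio of miR-351 differed by 0.03 on the log2 scale (SE 0.18).

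The summed members of the clusters differed in direction, but the miR-15b/miR-16 and miR-322/miR-503 sums mostly followed their leading members. In sham libraries miR-16-5p averaged 1280 of the 1435 normalized counts of the miR-15b/miR-16 sum. miR-322-3p, which lacks the family seed, averaged 1344 of the 1690 of the miR-322/miR-503 sum. The miR-15b/miR-16 sum therefore hides the higher mean of miR-15b-5p in CCI-ION libraries. The miR-322/miR-503 sum was 1415, 1664 and 1991 normalized counts in the sham libraries and 2678, 2664 and 3212 in the CCI-ION libraries, without overlap. The miR-15b/miR-16 sum was 1385, 1371 and 1548 in the sham libraries and 1209, 945 and 1148 in the CCI-ION libraries, also without overlap. The miR-195/miR-497 sum, at 718, 806 and 863 against 850.4, 849.9 and 952, overlapped between the groups. The ratio of the CCI-ION to the sham mean was 1.69 for the miR-322/miR-503 sum, 0.767 for the miR-15b/miR-16 sum and 1.11 for the miR-195/miR-497 sum, whose log2 ratio of 0.15 turned to -0.10 with upper-quartile factors. The sums are descriptions of chosen miRNAs and were not tested. They include the 3p arms miR-15b-3p and miR-322-3p but not miR-195-3p or miR-503-3p. Relative to library totals (CPM), the miR-15b/miR-16 sum was 119 ± 9.72 in sham and 105 ± 13.5 in CCI-ION libraries and overlapped. On the same CPM scale the miR-195/miR-497 sum did not overlap, at 56.5, 71.2 and 71.5 in the sham libraries and 80.9, 80.9 and 92.2 in the CCI-ION libraries, and neither did the miR-322/miR-503 sum (141 ± 27.3 and 273 ± 33.0).

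**Figure D4:**
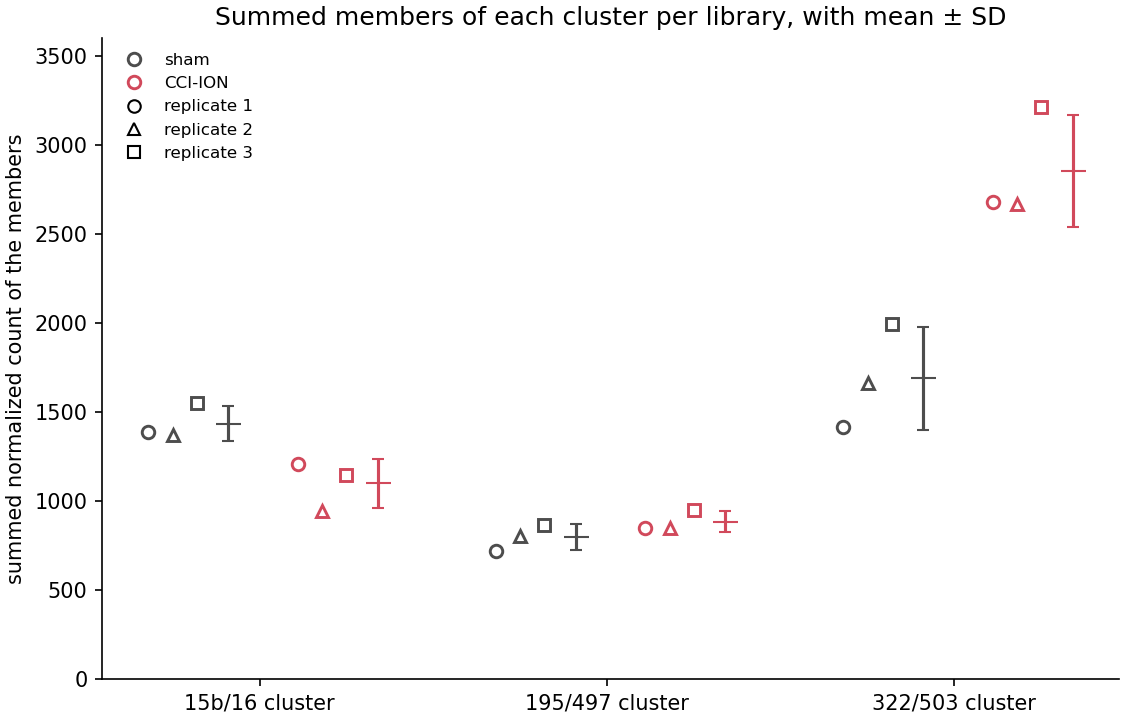
Summed normalized count of the members of each cluster in each library, on a linear axis from 0, with the symbol giving the replicate number and the bars the mean ± SD. The CCI-ION libraries lie above all sham libraries for the miR-322/miR-503 cluster and below them for the miR-15b/miR-16 cluster, and the groups overlap for the miR-195/miR-497 cluster on this scale, though not in CPM.

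The clusters were compared only through the most abundant member of each, as log2 ratios within a library, which hardly depend on the scaling. The log2 ratio of miR-322-3p to miR-16-5p was -0.17, 0.15 and 0.19 in the sham libraries, so that these miRNAs were about equal, and 1.08, 1.72 and 1.49 in the CCI-ION libraries. The difference of 1.37 was larger than the spread within either group (SD 0.20 and 0.33). That of miR-322-3p to miR-195-5p differed by 0.95, from 1.39 ± 0.17 to 2.34 ± 0.15 (SD, n = 3 each). That of miR-195-5p to miR-16-5p differed by 0.43, from -1.34 ± 0.11 to -0.91 ± 0.18 (SD, n = 3 each). In each of the 3 pairs, the CCI-ION libraries lay above all sham libraries. The two-sided exact permutation p was 0.1 (0.1 after adjustment over the 3 pairs), the smallest the design allows. The differences ranged from 1.23 to 1.55, 0.87 to 1.04 and 0.34 to 0.52 when each library was left out in turn. Any of these ratios follows from the others, so the pairs are not independent. Groups without overlap were common elsewhere, at 40.7% of single miRNAs and 44.3% of hairpin arm ratios. The ratios describe the chosen members and not whole clusters. The log2 fold change was larger for miR-15b-5p (0.48) than for miR-322-5p (0.29) or miR-503-5p (0.35), while that of miR-15b-3p was -0.73.

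The total of the 5 miRNAs found by RefSeq sequence to carry the AGCAGCA seed overlapped between the groups, and its log2 ratio of -0.12 turned to 0.08 with library totals and was -0.36 with upper-quartile factors. miR-15a-5p is not in this sum, which covers only miRNAs with a RefSeq sequence under their name and may lack carriers of the seed. The sum was 2249, 2296 and 2582 normalized counts in the sham libraries and 2292, 1934 and 2338 in the CCI-ION libraries, with overlapping groups. miR-16-5p made up 54.7%, 52.9% and 54.0% of this sum in the sham libraries and 46.3%, 35.8% and 41.3% in the CCI-ION libraries, lower in every CCI-ION library. miR-497-5p made up 12.2% ± 0.642 in sham and 18.8% ± 3.55 in CCI-ION libraries (SD, n = 3 each), higher in every CCI-ION library. miR-15b-5p and miR-322-5p went from 5.11% ± 0.416 to 8.17% ± 3.32 and from 7.53% ± 0.755 to 10.1% ± 1.55, also without overlap but by a narrow margin. The highest sham and lowest CCI-ION shares were 5.39% and 5.52% for miR-15b-5p, and 8.03% and 8.31% for miR-322-5p. miR-195-5p held a share of 21.3% ± 1.35 and 21.8% ± 0.340. These shares describe the same values as above and do not depend on the scaling of a library, but each share depends on the others.

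**Figure D5:**
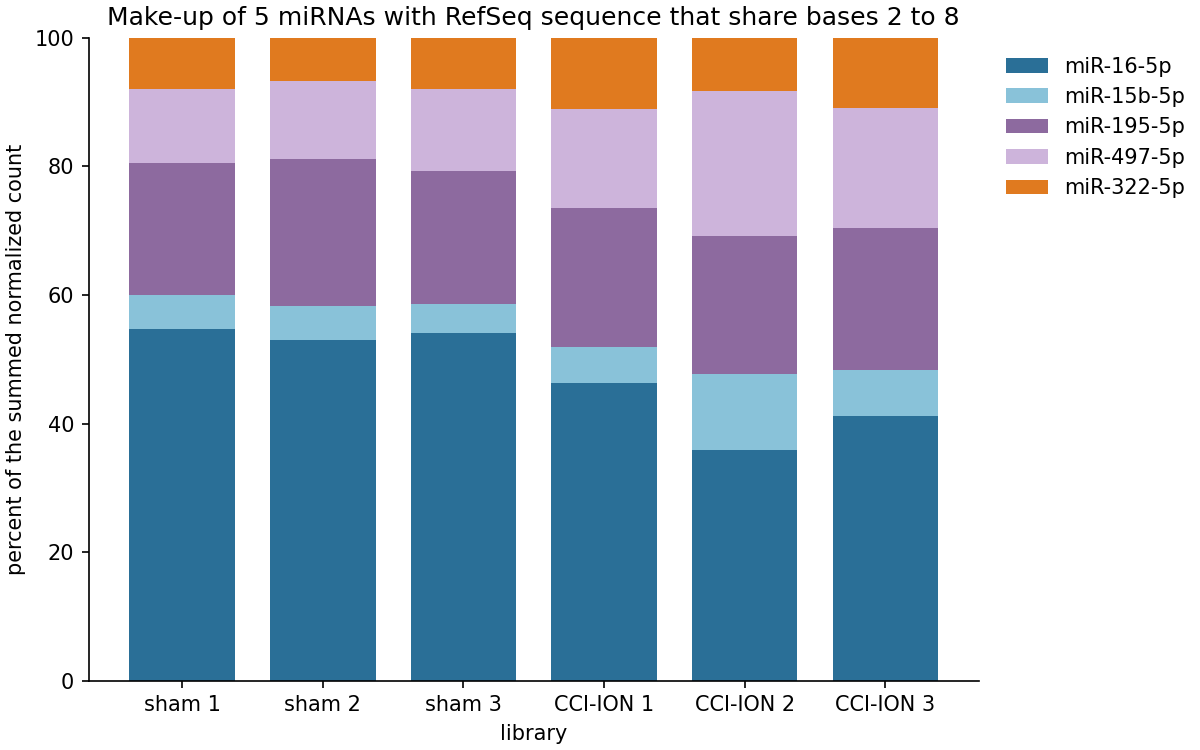
Percent that each of the 5 miRNAs with the seed AGCAGCA in RefSeq contributed to their summed normalized count, one stacked bar per library; miR-15a-5p is not included. The share of miR-16-5p is 52.9% or more in the sham libraries and 46.3% or less in the CCI-ION libraries, and that of miR-195-5p is near 21% to 22% of the sum in both group means.

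The miRNAs nearest in profile to the leading member of each cluster were taken from the 357 other miRNAs with a mean of at least 100, by the root mean square difference of their log2 values over the 6 libraries after subtraction of each miRNA's mean. For miR-322-3p they were miR-143-3p (0.14), miR-145-5p (0.18) and miR-341 (0.19). For miR-16-5p they were miR-138-5p (0.092), miR-376b-5p (0.099) and let-7f-5p (0.14). For miR-195-5p they were miR-708-5p (0.063), miR-873-3p (0.068) and miR-194-5p (0.075). The difference between the groups was kept in this distance, so a near profile partly reflects a similar change between sham and CCI-ION. A shared cell source was not tested.

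miR-143-3p and miR-145-5p, the nearest to miR-322-3p, are markers of the vessel wall, made by smooth muscle cells and pericytes. Of the 4 vessel wall markers listed, all were above 0 in every library, 4 had a higher mean in CCI-ION libraries and 2, miR-143-3p (log2 fold change 1.11, limma adjusted p = 0.0334) and miR-145-5p (0.85, limma adjusted p = 0.0450), passed the threshold. The opposite arms of these hairpins, miR-143-5p (0.69, limma adjusted p = 0.195) and miR-145-3p (0.12, limma adjusted p = 0.557), overlapped between the groups. The summed share of the 4 markers, mostly miR-143-3p, was 0.279% to 0.430% of the counts in sham and 0.784% to 0.946% in CCI-ION libraries. The part of this difference in the higher values of miR-322-3p, miR-497-5p and their neighbours was not tested. Of the 2 endothelial markers, miR-126a-3p was higher in every CCI-ION library (log2 fold change 0.44, limma adjusted p = 0.0877) and miR-126a-5p was lower in every one (log2 fold change -0.91, limma adjusted p = 0.205).

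miR-16-5p is also plentiful in blood cells. Of 4 erythrocyte markers 3 were listed, 2 of them above 0 in every library. Their summed share was 0.0235% to 0.0299% of the counts in sham and 0.0281% to 0.0348% in CCI-ION libraries, with overlapping groups. That sum was mostly miR-486, which overlapped between the groups. miR-451-5p was higher in every CCI-ION library, by 1.07 on the log2 scale (limma adjusted p = 0.0649). The 5 immune markers held 0.0578% to 0.0699% and 0.0645% to 0.0786% of the counts, mostly as miR-146a-5p, and 0 of them passed the threshold in limma. Their means were higher in CCI-ION libraries for 3 and lower for 2. The 1 at an unadjusted p under 0.05 was miR-223-3p, higher in every CCI-ION library (log2 fold change 0.95, limma adjusted p = 0.0597). Of the 5 neuronal markers, 4 had a lower mean in CCI-ION libraries and 1, miR-124-3p, passed the threshold as lower (log2 fold change -0.78, limma adjusted p = 0.0435). miR-128-3p (-0.91, limma adjusted p = 0.0597) and miR-138-5p (-0.45, limma adjusted p = 0.142) were also lower in every CCI-ION library. miR-9a-5p (-0.17), which dominates the neuronal sum, and miR-124-5p (0.16) overlapped between the groups. Of the 3 oligodendrocyte markers, all had a lower mean, miR-219a-5p was near the detection limit (7, 0 and 14 inferred reads in sham and 0 in every CCI-ION library) and miR-338-3p passed (log2 fold change -1.27, limma adjusted p = 0.0190). The 3 markers of hypothalamus and pituitary, dominated by miR-7a-5p, held 18.7% to 26.8% of the counts in sham and 8.97% to 15.04% in CCI-ION libraries, without overlap. They differed in direction: miR-7a-5p and miR-7b were lower in every CCI-ION library (log2 fold changes -1.04 and -0.87), and miR-375-3p was higher in every one (0.58). In limma 0 of the 3 passed, and 3 were at an unadjusted p under 0.05. The part of these markers in the lower values of miR-16-5p and miR-15b-3p was not tested.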

How the data were processed

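Small RNA of the ARC was sequenced in 3 sham and 3 CCI-ION libraries, grouped by the sample labels. The authors deposited one signal value per mature miRNA and library, which appears to be a read count divided by a size factor (0.821 to 1.20 as inferred); per the labels, cutadapt 1.14 and Bowtie 1.1.1 with build rn6 were used, and the counting, miRNA annotation and normalization are not given in the sources used here. Every value was a whole multiple (within 0.01) of one step per library, with a smallest value of 5 steps, and reads were inferred by taking that step as 1 read, which no source used here states. The log2(normalized count + 1) values were compared with limma 3.58.1 in R 4.3.3, two-sided, without covariates, keeping miRNAs whose mean over the libraries reached 1. Arm ratios were fitted the same way for hairpins with a mean of at least 10 in each arm. Both fits were tested on simulated data with the same spread parameter for every miRNA, so that test does not show how reliable the calls here are. Single ratios used exact permutation tests. The members, lists and tests were chosen with earlier results of these data known, and the within-cluster ratios after their values were seen. Named besides the members were the other arms, the miRNAs of the X-linked cluster, marker lists and the 3 nearest profiles per leading member. Alternatives were other scalings, filters, a pseudocount of 0.1, an intensity trend, a replicate block and leaving out each library. Tests on raw counts were not run because the deposited values are normalized.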

Additional observations from a re-analysis of the deposited data

How the results depend on the processing

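The direction of 7 of the 8 members was kept in all 14 alternatives; miR-195-5p (log2 fold change -0.09) turned to 0.11 with library totals and ranged from -0.16 to 0.0076 with a library left out. The median over all miRNAs, on the log2 scale, went from -0.01 to 0.17 with library totals and to -0.25 with upper-quartile factors, and higher calls from 50% of 38 to 80.8% of 52 and 10.6% of 94. Calls were 63 with a minimum mean of 10 and 88 with the intensity trend, and the members called were 2 with that minimum and 2 without the most abundant miRNA in the totals. Cluster sums (log2 ratio of means) with library totals were -0.18 for miR-15b/miR-16, 0.35 for miR-195/miR-497 and 0.082 for the seed carriers; with upper-quartile factors they were -0.63, -0.097 and -0.36, and 0.50 for miR-322/miR-503. With a library left out, calls ranged from 7 to 42, members called from 0 to 1 (5 fits gave 0, with 2 to 5 members at an unadjusted p under 0.05 in limma), family hairpins called from 0 to 1, and the miR-322-5p to miR-503-5p difference from -0.26 to 0.18. With the replicate block 3 miRNAs and 0 members passed in limma (4 members at an unadjusted p under 0.05; miR-15b-3p adjusted p = 0.113), and the miR-15b arm ratio still passed (adjusted p = 0.0361). The numbers do not pair the libraries: same-numbered libraries deviated with correlations of -0.03, 0.19 and -0.01, and 2 of 6 libraries correlated best with their own number. The order of the 8 means over all libraries was the same in all alternatives run, but within a group neighbours changed places without sham replicate 1 or 3 or CCI-ION replicate 1. The planned edgeR and DESeq2 fits were not run. Few reads limit miR-15b-3p, and miR-16-3p, miR-450a-3p and miR-219a-5p were at 0 in some libraries. The cause of these changes was not tested.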
